A study of Mus musculus with 26 samples.

Results

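The Hox genes are homeobox genes that lie side by side in 4 clusters of the mouse genome. The 38 genes examined here were chosen by name and mapped to GENCODE M21 on mm10, and all 38 had a row among the 47606 genes of the expression table. There were 10 genes in HoxA, 10 in HoxB, 9 in HoxC and 9 in HoxD. Each cluster was taken from the first to the last of these genes with 10 kb on either side. The windows were chr6:52152417-52270880 for HoxA, chr11:96184316-96378256 for HoxB, chr15:102911103-103046852 for HoxC and chr2:74658310-74775142 for HoxD, 564988 bp together. All listed genes of HoxA are on the minus strand, and all those of HoxB, HoxC and HoxD are on the plus strand.

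Hox proteins are homeodomain transcription factors that give cells their position along the body axis of the embryo. The genes are switched on in the order in which they lie along each cluster, and in pluripotent cells they are held silent by Polycomb complexes while their promoters keep marks of activity as well. CTCF, a zinc finger protein that marks boundaries between chromatin domains together with cohesin, binds within the clusters, and the strand of its motif bears on which sites are paired in chromatin loops.

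M-ATAC tags open chromatin with a Tn5 transposase that carries methylated adaptors and then converts the fragments with bisulfite, so that accessibility and cytosine methylation come from the same reads. CTCF M-ChIP does the same on chromatin precipitated with an antibody to CTCF. The cells were KH2 mouse embryonic stem cells (mESC), grown on irradiated feeder cells and then pre-plated to take the feeder cells out. The lists held 4 M-ATAC samples and 2 samples each of M-ATAC-NC (tagmented DNA set aside before conversion), ATAC with Nextera transposase, CTCF M-ChIP, CTCF M-ChIP-NC and CTCF ChIP, and the RNA-seq of 2 wild-type mESC samples came as 1 merged table. In a further set, Klf4 null mESC carried WT KLF4, the R462A mutant of KLF4 or neither, and lists of 2 samples of each were used. A further 2 samples each of WT and mutant cells, titled KLF4 M-ChIP, were not analysed here under those titles. In that set KLF4 was delivered by lentivirus and induced with doxycycline, so its level may differ from that of the native gene. Methylation and the merged region lists came from pooled replicates of KH2 mESC, and have no SD. The paper describes M-ATAC as done in duplicate, while the labels number 4 M-ATAC replicates. The labels do not say whether replicates were separate cultures, so p-values measure only the spread between these samples, which may be technical.

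The Hox genes were transcribed at low levels. Of the 38 genes, 4 reached 1 TPM (a level per transcript length, scaled to the same total in each library), where 28.2% of all genes of the table and 57.2% of 21546 protein-coding genes did. The median Hox gene had 0.385 TPM, and the median protein-coding gene 2.82 TPM. The Hox median was at or above 67.5% of all genes of that expression list and 37.4% of protein-coding genes. The highest was Hoxc13 with 2.81 TPM, a gene of the posterior end of HoxC that acts in hair and nails. Hoxa10, known for its role in the uterus and in blood precursors, had 2.23 TPM. Hoxb9, which patterns the thorax, had 2.05 TPM, and Hoxc4, at the anterior end of HoxC, had 1.55 TPM. No gene of HoxD reached 1 TPM. Hoxd13, which shapes the digits, led that cluster with 0.85 TPM. Hoxd12 was the only gene of the 38 listed at 0 TPM, where 4536 of the 21546 protein-coding genes were, so that low levels were more frequent among the Hox genes than values of 0. In all, 8 of the 38 genes were below 0.1 TPM.

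**Figure D1:**
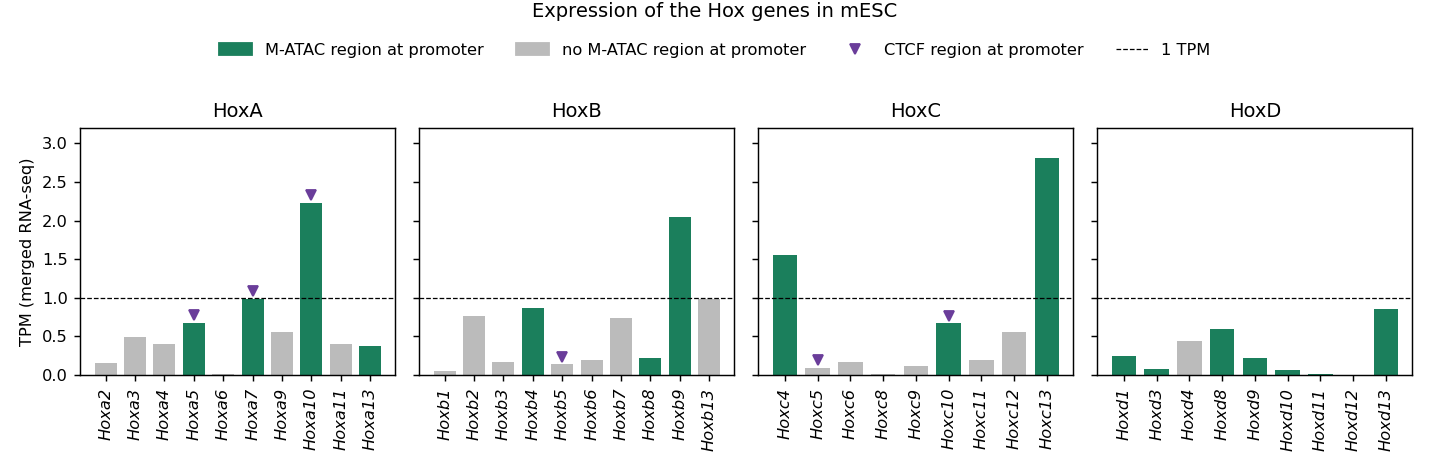
Bars give the TPM of each of the 38 Hox genes in the merged RNA-seq of mESC, by cluster and in the order of the paralog groups, with the dashed line at 1 TPM. Green bars have a merged M-ATAC region within 1 kb of a start and purple triangles mark a CTCF region there; the 4 bars above the line, Hoxc13, Hoxa10, Hoxb9 and Hoxc4, are all green.

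By cluster, HoxA and HoxB had the higher medians, and HoxD the lowest top level and sum. HoxA ranged from 0.02 TPM to 2.23 TPM with a median of 0.445 TPM, and HoxB from 0.05 TPM to 2.05 TPM with a median of 0.48 TPM. HoxC ranged from 0.01 TPM to 2.81 TPM with a median of 0.19 TPM, and HoxD from 0.00 TPM to 0.85 TPM with a median of 0.22 TPM. The paralog groups, which number the genes from anterior to posterior, were spread as follows. The 7 genes of groups 1 to 3 had a median of 0.17 TPM and none at 1 TPM, the 15 genes of groups 4 to 8 a median of 0.4 TPM and 1 at 1 TPM or more, and the 16 genes of groups 9 to 13 a median of 0.48 TPM and 3 at 1 TPM or more. The posterior groups thus held 3 of the 4 genes at 1 TPM, but each group also had genes close to 0. The table was made without strand, and 22 of the 38 genes overlap another annotated gene, 13 of them one on the opposite strand, so reads of overlapping genes, antisense partners included, cannot be told apart. Hoxa3, Hoxc5, Hoxd3 and Hoxd4 have long annotated spans that run over neighbouring genes. These low values have no replicate spread.

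Most genes listed here as acting on the clusters were at 1 TPM or more, where 57.2% of all protein-coding genes were. All 11 genes found of 12 listed for Polycomb repressive complex 2, which writes the repressive mark on histone H3, were at 1 TPM or more, from Phf19 with 3.96 TPM to Rbbp7 with 323.96 TPM, and its catalytic subunit Ezh2 had 184.78 TPM. Of the 19 genes of Polycomb repressive complex 1, which modifies histone H2A and compacts chromatin, 17 were at 1 TPM or more. All 19 ranged from Cbx8 with 0.55 TPM to Phc1 with 281.81 TPM. All 10 genes of the Trithorax group, which oppose Polycomb, passed 1 TPM, from Kmt2a with 9.01 TPM to Ash2l with 247.84 TPM. The median levels of these 3 lists were 134.0, 21.5 and 37.2 TPM, against 0.385 TPM for the Hox genes. The 8 boundary factors lay between Nipbl with 32.79 TPM and Rad21 with 222.42 TPM, and Ctcf itself had 82.94 TPM. The 9 TALE cofactors, homeodomain proteins that bind DNA together with Hox proteins, ranged from Pknox2 with 1.75 TPM to Pbx2 with 51.53 TPM.

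Genes of signals that switch Hox genes on in the embryo ranged widely in level. Of 11 inducers, receptors and enzymes of retinoic acid, 6 were at 1 TPM or more, close to the 57.2% of all protein-coding genes. The retinoic acid receptor gene Rara was the highest with 42.99 TPM, while Cdx4 was the lowest with 0.10 TPM and Cdx2, another caudal factor that activates Hox clusters, had 0.12 TPM. Of 13 long non-coding RNAs of the clusters, 10 were found in the table and 2 were at 1 TPM or more, where 28.2% of all genes were. Halr1 on the HoxA side had 40.73 TPM, above every one of the 38 Hox genes, and Hottip, at the other end of HoxA, was listed at 0.00 TPM. Hotair of HoxC had 0.03 TPM.

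Marker lists were used to check the cell type. All 10 embryonic stem cell markers were at 1 TPM or more, with a summed level of 9152.15 TPM, from Tfcp2l1 with 95.09 TPM to Dppa5a with 5393.76 TPM. Of 14 fibroblast markers, chosen for the feeder layer, 12 were at 1 TPM or more, where 57.2% of all protein-coding genes were. All 14 had a summed level of 262.68 TPM, led by Acta2 with 85.30 TPM. The collagen gene Col1a1 had 48.69 TPM, Lum had 0.08 TPM, Twist2 had 0.43 TPM, and none of the 14 was at 0. Of 10 markers of differentiating cells, 7 were at 1 TPM or more, not far from that share of 57.2%. All 10 had a summed level of 87.00 TPM and ranged from Neurog2 with 0.06 TPM to Gata4 with 33.46 TPM. The 38 Hox genes summed to 21.17 TPM, less than any of these 3 lists, and the part of feeder or differentiating cells in the Hox values was not tested. In bulk RNA, fewer cells that express a gene and less RNA per cell cannot be told apart.

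The question for the promoters was whether weakly transcribed Hox genes lie in open chromatin. A merged M-ATAC region lay within 1 kb of a start of a protein-coding transcript in 17 of the 38 genes, where 63.4% of 21866 protein-coding genes had one. The 17 were Hoxa5, Hoxa7, Hoxa10 and Hoxa13 in HoxA, Hoxb4, Hoxb8 and Hoxb9 in HoxB, Hoxc4, Hoxc10 and Hoxc13 in HoxC, and Hoxd1, Hoxd3, Hoxd8, Hoxd9, Hoxd10, Hoxd11 and Hoxd13 in HoxD. HoxD thus had a region at 7 of 9 promoters, with a summed level of 2.52 TPM against 6.17 to 6.30 TPM in the other clusters. The posterior groups 9 to 13 had a region at 9 of 16 promoters, groups 4 to 8 at 6 of 15 and groups 1 to 3 at 2 of 7.

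All 4 genes at 1 TPM or more were among these 17, and none was among the 21 genes without a region. The 17 had a median of 0.67 TPM and the 21 a median of 0.19 TPM. Over all protein-coding genes, 82.1% of those with a region at the promoter reached 1 TPM, against 12.8% of those without one. The 13 remaining Hox genes with a region therefore had open promoters with little transcript, a state that was the minority among all genes with such promoters. When only regions found in every M-ATAC sample were kept, 1 Hox promoter was left, that of Hoxc13, against 35.5% of protein-coding genes, so the count of 17 rests on the merged list. In single samples of M-ATAC, M-ATAC-NC or ATAC, 12 of the 38 promoters held a region at least once, against 62.3% of protein-coding genes. The promoters of Hoxa10 and Hoxc4, both genes at 1 TPM or more, were not among these 12.

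Hoxc13 had the most constant of these promoters. The merged region chr15:102920637-102921003 ended 100 bp before the start, with a fold enrichment over the local background of 10. In M-ATAC samples 1 to 4 the fold there was 8.66, 8.11, 8.32 and 6.16, in M-ATAC-NC 9.61 and 8.08, and in ATAC 7.16 and 5.47. It was thus called in all 8 samples with folds that overlapped between M-ATAC and M-ATAC-NC. The promoter of Hoxd1, at the anterior end of HoxD, lay in chr2:74762841-74763217 with a fold of 7.41 and was called in 6 of 8 samples. That of Hoxd10 had the highest fold of HoxD, 9.78 at chr2:74691527-74691908, but was called in only 2 of 8 samples.

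Across the windows there were 43 of the 66726 merged M-ATAC regions, 10 in HoxA, 11 in HoxB, 12 in HoxC and 10 in HoxD. Their median fold was 5.64, below the 7.07 of all merged regions, and 16 of the 43 (37.2%) touched no region of any of the 8 single samples, against 24.2% of all merged regions. Open regions of the clusters were therefore mostly weak. Of the 43 regions, 19 touched an annotated exon, 10 lay in introns alone and 14 lay outside genes. One region of the 43 was shared by all 8 samples (the promoter of Hoxc13), where 18.4% of all merged M-ATAC regions were, and 6 were found in 4 samples or more, against 41.8% of all.

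The strongest region of the clusters stood apart from the Hox promoters. It was chr11:96190207-96190586, in the HoxB flank 3730 bp before the start of Hoxb13 and outside annotated genes, with a fold of 17.0. Its folds were 8.11, 11.1, 10.7 and 9.0 in the M-ATAC samples, 5.53 and 6.23 in M-ATAC-NC and 4.39 in ATAC replicate 2, and it was not called in ATAC replicate 1. In HoxA the first was chr6:52172509-52172842, which touches an exon of Hoxa3 7678 bp from the nearest start, that of Hoxa2, with a fold of 14 and calls in 7 of 8 samples. In HoxC it was chr15:102931611-102932024, between Hoxc13 and Hoxc12 and outside annotated genes, with a fold of 11.7 and calls in 4 of 8 samples. The next in HoxB was chr11:96374879-96375139, in the flank 9127 bp from the start of Hoxb1, with a fold of 8.74 and calls in 2 of 8 samples. In HoxA, HoxB and HoxC the highest fold was thus away from the starts of the listed genes, and in HoxD it was at one.

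**Figure D2:**
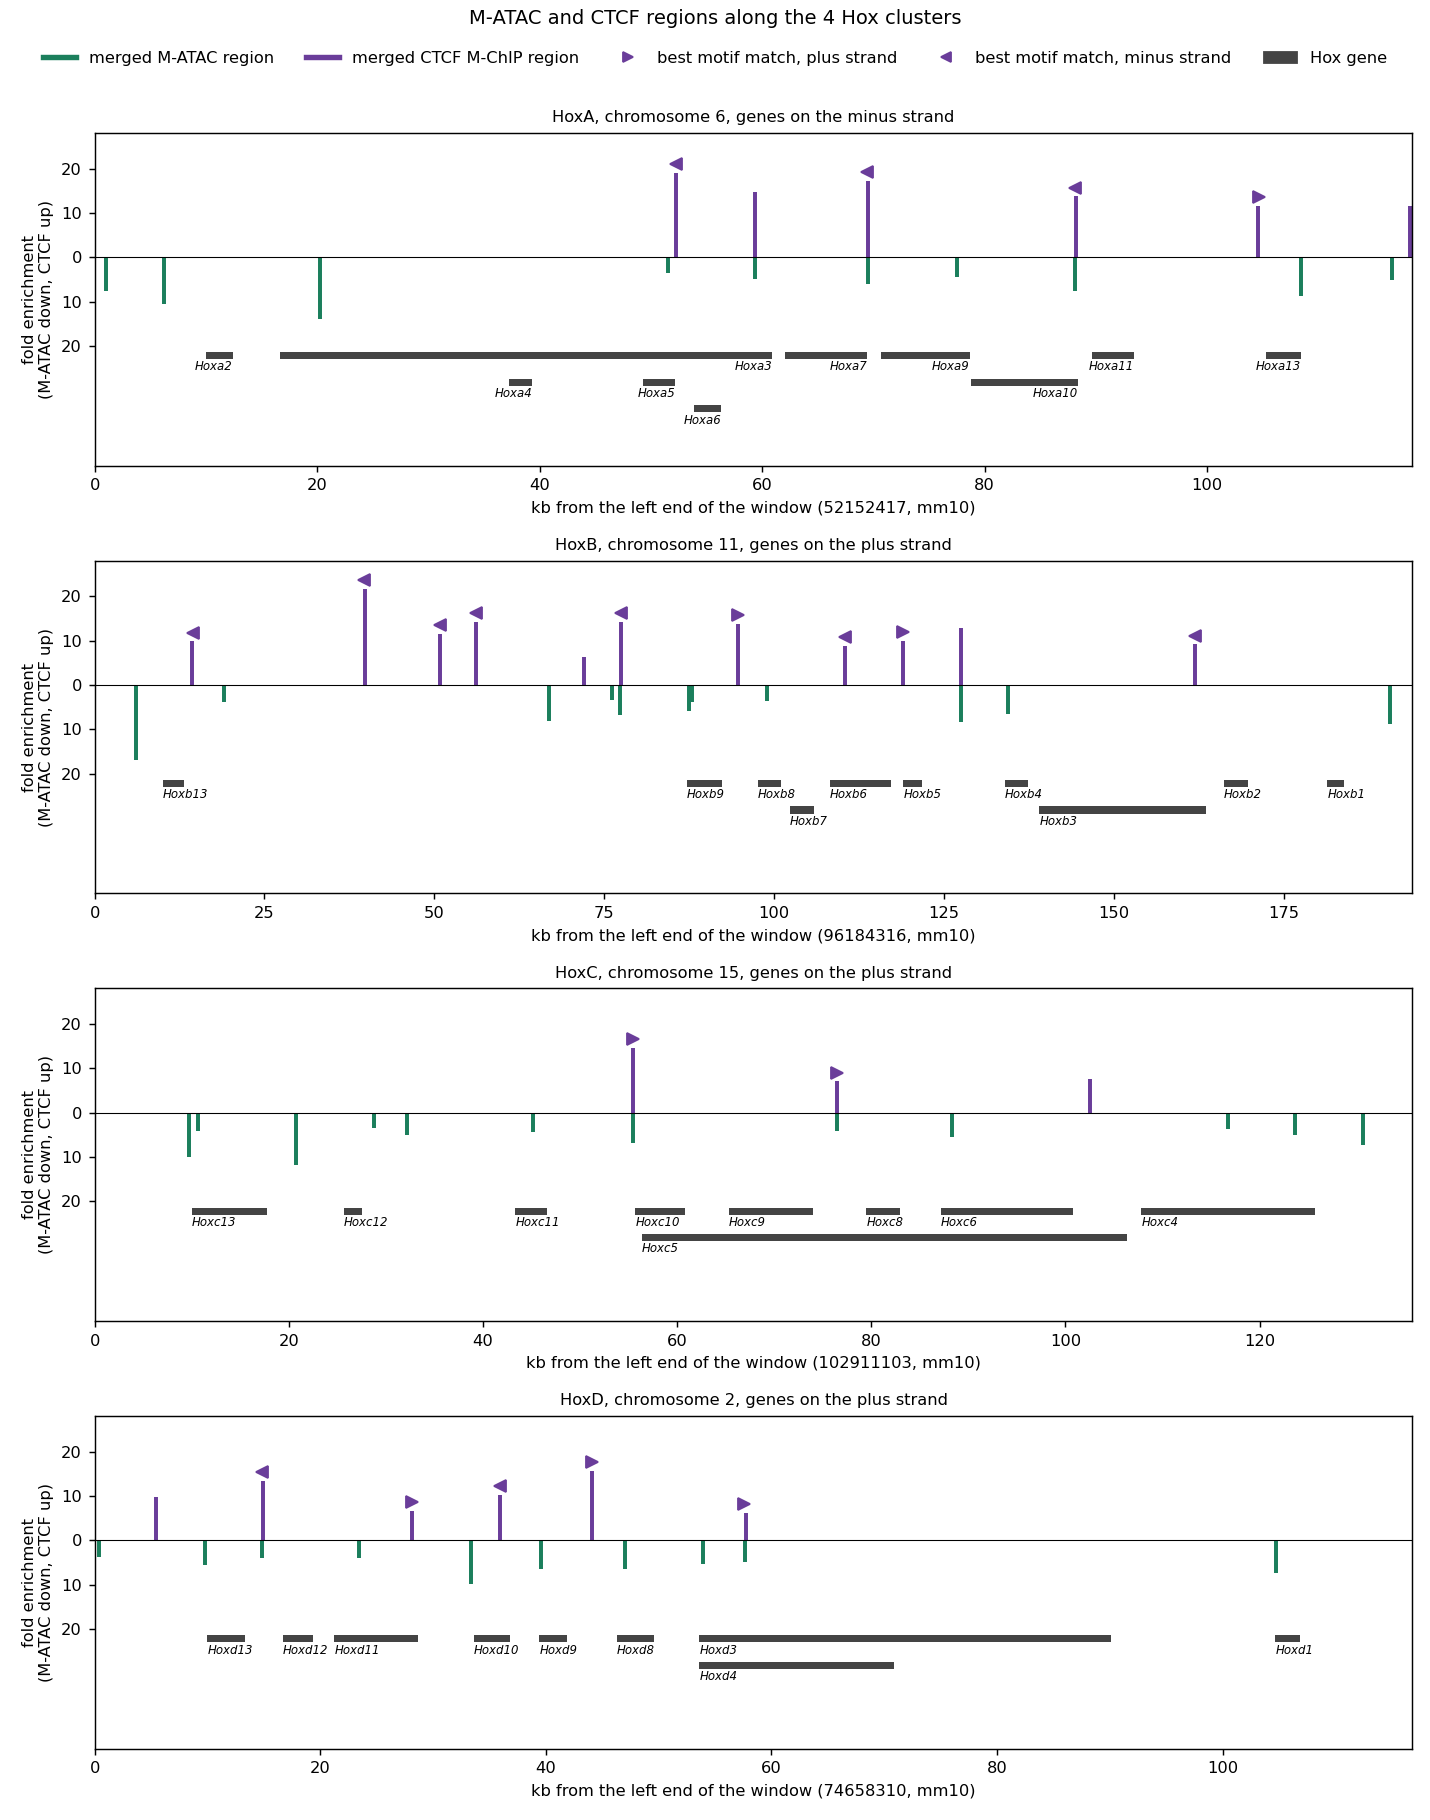
Maps of the 4 cluster windows to scale (x axis, kb from the left end of each window, mm10), with merged CTCF M-ChIP regions drawn upward and merged M-ATAC regions downward by fold enrichment, and the 38 Hox genes below with their names at the 5′ end of the gene. Arrowheads give the strand of the best CTCF motif match of a region; CTCF regions were most numerous in HoxB, with 11, and fewest in HoxC, with 3.

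CTCF regions were fewer. The windows had 26 of the 38881 merged CTCF M-ChIP regions, 6 in HoxA, 11 in HoxB, 3 in HoxC and 6 in HoxD, or 5.06, 5.67, 2.21 and 5.14 regions per 100 kb. Their median fold was 11.5 against 9.69 over all merged CTCF regions. Each of the 26 touched a region of at least 1 of the 6 CTCF samples (98.9% of all merged CTCF regions did), 25 were found in 4 samples or more (77.5% of all), and 14 (against 43.7% of all merged CTCF regions) in all 6. Of the 26, 9 touched a merged M-ATAC region (34.6%, where 22% of all merged CTCF regions did). Conversely, 9 of the 43 M-ATAC regions of the windows (20.9%) touched a CTCF region, against 12.7% of all M-ATAC regions.

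A CTCF region lay within 1 kb of a start in 6 of the 38 genes, where 14.4% of 21866 protein-coding genes had one. These were Hoxa5 with a fold of 19.1, Hoxa7 with 17.2, Hoxc10 with 14.6, Hoxa10 with 13.7, Hoxb5 with 9.88 and Hoxc5 with 7.63. Their levels were 0.68 TPM for Hoxa5, 0.99 TPM for Hoxa7, 0.67 TPM for Hoxc10, 2.23 TPM for Hoxa10, 0.14 TPM for Hoxb5 and 0.09 TPM for Hoxc5. Of these 6 promoters, 4 also had an M-ATAC region, and those of Hoxb5 and Hoxc5 had none. With promoters of 3 kb the count was 15, where 26.2% of protein-coding genes had a region.

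In HoxA, CTCF lay in the middle and posterior part of the cluster, and none of the 6 regions lay on the Hoxa2 side of Hoxa5. The region at Hoxa5, chr6:52204480-52204839, covers the start of the gene and was the strongest. Its folds were 15.9 and 8.02 in CTCF M-ChIP, 10.1 and 8.65 in CTCF M-ChIP-NC and 16.5 and 22.5 in CTCF ChIP. Every CTCF ChIP value was above every value of the other groups, which overlapped each other. The region at Hoxa7, chr6:52221660-52222146, covers a start of the gene and touches an exon, and was found in 6 of 6 samples. At Hoxa10, chr6:52240441-52240770 lies in an exon 84 bp inside the start, and it had folds of 12.4 in CTCF M-ChIP replicate 1, 7.84 and 8.14 in CTCF M-ChIP-NC, and 18.4 and 21.3 in CTCF ChIP, with no call in CTCF M-ChIP replicate 2. The last with a motif, chr6:52256794-52257164, lies between Hoxa11 and Hoxa13 in an exon of the non-coding gene 9530018H14Rik, with a fold of 11.5 and calls in 5 of 6 samples.

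HoxB had most of its CTCF in the long stretch between Hoxb13 and Hoxb9, where 6 of its 11 regions lay. The strongest of all 26 was there, chr11:96223875-96224206, outside annotated genes, with a merged fold of 21.7. It had folds of 15.2 and 17.1 in CTCF M-ChIP, 7.78 and 13.7 in CTCF M-ChIP-NC and 13.5 and 21.3 in CTCF ChIP, so that CTCF ChIP overlapped both other groups, while CTCF M-ChIP lay above CTCF M-ChIP-NC. Near it were chr11:96234966-96235270 with a fold of 11.5, chr11:96240245-96240586 with 14.2 and chr11:96261652-96261916 with 14.2, the last in an exon of Gm53, and each was found in 6 of 6 samples. Close to Hoxb13 lay chr11:96198460-96198831 with a fold of 9.81 and calls in 5 of 6 samples.

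The other 5 HoxB regions lay among the genes. Those with a motif match were chr11:96278783-96279125 between Hoxb9 and Hoxb8 with a fold of 13.8, chr11:96294582-96294843 in an intron of Hoxb6 with 8.8, and chr11:96303029-96303427 at the start of Hoxb5 with 9.88, each found in 6 of 6 samples. The most anterior was chr11:96346137-96346314 in an exon of Hoxb3 and of Hoxb3os, with a fold of 9.14 and calls in 4 of 6 samples. The region without a match, chr11:96311661-96311921 between Hoxb5 and Hoxb4, had a fold of 12.9 and calls in 5 of 6 samples. Regions thus reached from Hoxb13 to Hoxb3, and none lay on the Hoxb1 side of Hoxb3.

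HoxC was the sparsest. Its strongest region, chr15:102966400-102966726, ended 70 bp before the start of Hoxc10, with folds of 12.1 and 14 in CTCF M-ChIP, 8.08 and 10.6 in CTCF M-ChIP-NC and 19.5 and 25.3 in CTCF ChIP, and the 3 groups did not overlap there. That order was seen after the values were known and was not tested. The other region with a motif, chr15:102987414-102987799, lies between Hoxc9 and Hoxc8 within a long intron of Hoxc5, with a fold of 7.04 and calls in 5 of 6 samples.

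In HoxD, CTCF regions lay both between and within posterior genes. The region chr2:74673028-74673372 between Hoxd13 and Hoxd12 had a fold of 13.4 and was found in 6 of 6 samples. The strongest, chr2:74702225-74702556 between Hoxd9 and Hoxd8, had a merged fold of 15.6, with 15.0 and 7.91 in CTCF M-ChIP, 6.95 and 7.07 in CTCF M-ChIP-NC and 13.7 and 20.4 in CTCF ChIP. Lower folds were found at chr2:74694120-74694350, in an exon of Hoxd10, with 10.2 and calls in 5 of 6 samples, and at chr2:74715907-74716252, in introns of Hoxd3 and Hoxd4 and an exon of Hoxd3os1, with 6.27 and calls in 4 of 6 samples. The last of these was called in neither CTCF M-ChIP sample alone. No CTCF region lay on the Hoxd1 side of it.

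A match to the CTCF motif MA0139.1 was listed in 20 of the 26 regions (76.9%), against 91.0% of all merged CTCF regions. The best match was taken as that of lowest p in a region, and a match is a description, not a site or a cause. It was on the strand of the genes in 10 regions and on the other strand in 10. By cluster, 3 of 4 in HoxA, 2 of 9 in HoxB, 2 of 2 in HoxC and 3 of 5 in HoxD had the strand of the genes. With so few matches, a difference between clusters was not tested. In HoxA the 3 matches at Hoxa5, Hoxa7 and Hoxa10 pointed with the genes, and the strand changed between Hoxa10 and Hoxa13. In HoxB all 5 matches between Hoxb13 and Hoxb9 pointed against the genes, and those at Hoxb9 to Hoxb8 and at Hoxb5 pointed with them. In HoxD the strand changed from region to region between Hoxd13 and Hoxd9 and was that of the genes in the last 2 regions, between Hoxd9 and Hoxd8 and within Hoxd3.

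The matches are shown because their strand and their CG dinucleotides carry the comparison of binding and methylation. Each reads 5′ to 3′ on the strand of the match, with CG in capitals, and each was the same in the mm10 genome. For HoxA and HoxC:
Hoxa5, chr6:52204655-52204673, minus strand: tctccagCGggtggCGctc
Hoxa7, chr6:52221805-52221823, minus strand: attccaggagatggcagtg
Hoxa10, chr6:52240537-52240555, minus strand: cCGccaCGagatggCGcac
Hoxa11 to Hoxa13, chr6:52257118-52257136, plus strand: tcaacaCGaggtggCGccc
Hoxc10, chr15:102966569-102966587, plus strand: cagctgctaggtggCGctg
Hoxc9 to Hoxc8, chr15:102987590-102987608, plus strand: tgaaCGCGaggtggCGctg

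For HoxB and HoxD the strongest HoxB match, the 2 HoxB matches with the strand of the genes, that in the Hoxb3 exon and 4 of HoxD were:
Hoxb13 to Hoxb9, chr11:96224003-96224021, minus strand: aggccagaagagggCGcca
Hoxb9 to Hoxb8, chr11:96278945-96278963, plus strand: tggcCGctagatggcatcc
Hoxb5, chr11:96303242-96303260, plus strand: tCGcCGggaggtggCGCGc
Hoxb3, chr11:96346191-96346209, minus strand: gggcCGgcagggggCGgca
Hoxd13 to Hoxd12, chr2:74673174-74673192, minus strand: CGcccaggagatggCGagc
Hoxd10, chr2:74694225-74694243, minus strand: tgatctctaggCGgCGctc
Hoxd9 to Hoxd8, chr2:74702392-74702410, plus strand: tggccactagagagCGctg
Hoxd3, chr2:74715918-74715936, plus strand: tgtccaggaggaggCGctg

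Matches of the clusters were rich in CG. A CG lay in 18 of the 20 best matches (90%), where 36.3% of the 35381 best matches of all merged CTCF regions had one. At position 15 of the match, counted from its 5′ end, 14 of 20 had a CG (70%), against 28.6% over all. The median score of the matches was 15.6 in the clusters and 17.1 over all, so the motifs were somewhat weaker by the matrix.

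At Hoxa5 the match lies within the promoter itself. RefSeq promoter windows of 300 bases, from 250 before to 50 after the start, were given for 22 of the 38 genes. The window of Hoxa5, chr6:52204538-52204837 on the minus strand of GRCm38.p6, is shown since the strongest CTCF region of HoxA covers it. The best CTCF match is in capitals at bases 165 to 183, and the window holds 29 CG dinucleotides.
Hoxa5 promoter: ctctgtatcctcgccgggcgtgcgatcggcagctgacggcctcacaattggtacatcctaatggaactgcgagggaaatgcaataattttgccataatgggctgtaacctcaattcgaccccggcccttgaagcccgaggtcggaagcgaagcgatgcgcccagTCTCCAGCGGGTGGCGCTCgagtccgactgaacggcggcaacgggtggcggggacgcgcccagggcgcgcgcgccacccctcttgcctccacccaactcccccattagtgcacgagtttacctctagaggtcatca

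Over the 22 genes the median window had 14.8 CG dinucleotides, from 4 for Hoxa9 and Hoxd4 to 45 for Hoxa13, and over 16515 protein-coding genes it had 14. These Hox promoters were therefore about as rich in CG as promoters in general, but 16 of the 38 genes had no window to count.

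Methylation was read from cytosines with at least 5 reads, with Wilson 95% intervals that cover counting error only. Replicates were pooled, and a read that spans several cytosines counts at each, so these counts are not independent. The windows held 743 such M-ATAC cytosines with a median of 7 reads, and 1571 were listed. Of their 6165 reads 56 were methylated, 0.908% (0.7% to 1.18%), against 1.87% (1.87% to 1.88%) over 1033385 cytosines of all M-ATAC regions. By cluster it was 1.06% (0.725% to 1.55%) in HoxA, 1.21% (0.709% to 2.06%) in HoxB, 0.921% (0.501% to 1.69%) in HoxC and 0.45% (0.218% to 0.926%) in HoxD. The intervals of the 4 clusters overlap. Of the 743 cytosines, 690 (92.9%) had no methylated read, against 86.5% over all, and 15 (2.02%) were methylated at 20% or more, against 5.71%.

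Promoters and other places differed in how they stood to the rest of the genome. At Hox promoters 19 of 3120 reads were methylated, 0.609% (0.39% to 0.949%), and at all protein-coding promoters 0.475% (0.471% to 0.479%), which lies inside that interval. Outside promoters the Hox windows had 36 of 2411 reads methylated, 1.49% (1.08% to 2.06%), against 6.54% (6.52% to 6.57%) over all cytosines outside promoters. In these pooled reads, open regions away from promoters were thus less methylated in the Hox clusters than over the genome. That difference rests on 272 cytosines and was not tested against the spread between regions or replicates. The sum over Hox promoters could not be told from that of all promoters at this depth. Of its 19 methylated reads, 7 were at Hoxa10, with 7 of 122 reads, 5.74% (2.81% to 11.4%), an interval above the 0.475% of all promoters. The remaining reads of the windows lay at promoters of other genes. Hoxd13 had 0 of 313 reads methylated at its promoter (0% to 1.21%), Hoxa13 had 1 of 512, 0.195% (0.0345% to 1.1%), and Hoxc13 had 1 of 433, 0.231% (0.0408% to 1.3%).

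Regions with at least 5 cytosines were ordered in each cluster by the lower bound of their methylation, and the highest bound was at Hoxa10. The region, chr6:52240451-52240641, lies in an exon 213 bp from the start, and its 18 cytosines are those of the promoter. It was found in the merged list and in none of the 8 single samples. The next of HoxA, in the flank beyond Hoxa2, had 3 of 56 reads, 5.36% (1.84% to 14.6%). In HoxB the first was chr11:96261584-96261807, in an exon of Gm53, with 6 of 150 reads, 4.0% (1.85% to 8.45%), followed by chr11:96311684-96311888 between Hoxb5 and Hoxb4 with 2 of 124 reads, 1.61% (0.443% to 5.69%). The methylation of these regions was low in absolute terms. In HoxC the first was the region at Hoxc10, chr15:102966460-102966696, with 3 of 184 reads, 1.63% (0.556% to 4.68%), and the next chr15:102999277-102999470, in introns of Hoxc5 and Hoxc6, with 1 of 70 reads, 1.43% (0.253% to 7.66%). In HoxD they were chr2:74673047-74673209 between Hoxd13 and Hoxd12 with 2 of 133 reads, 1.5% (0.413% to 5.32%), and chr2:74697641-74698066 at the start of Hoxd9 with 2 of 163 reads, 1.23% (0.337% to 4.36%). The 8 intervals overlap one another, and an order among them was not tested. Of the 8, those at Hoxa10, Gm53, upstream of Hoxb4, at Hoxc10 and between Hoxd13 and Hoxd12 touch a CTCF region. The others do not. Over the windows 20.9% of M-ATAC regions touch one, and 12.7% of all M-ATAC regions do.

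Of the regions of highest fold, that at the exon of Hoxa3 was above the 0.908% of the windows and the other 4 given here were below it. Every one of their intervals includes 0.908%, so these regions could not be told from the windows at this depth. The region before Hoxb13 had 1 of 285 reads methylated, 0.351% (0.062% to 1.96%), that at the exon of Hoxa3 11 of 806 reads, 1.36% (0.764% to 2.43%), and that between Hoxc13 and Hoxc12 2 of 247 reads, 0.81% (0.222% to 2.9%). At Hoxd10 it was 1 of 307 reads, 0.326% (0.0575% to 1.82%), and at Hoxd1 1 of 242 reads, 0.413% (0.073% to 2.3%).

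CTCF-bound motifs of the clusters were almost free of methylation. At the 64 motif cytosines with at least 5 CTCF M-ChIP reads, with a median of 10 reads, 2 of 715 reads were methylated, 0.28% (0.0767% to 1.01%), against 10.3% (10.2% to 10.4%) over 33959 motif cytosines of all CTCF regions, also with a median of 10 reads. The 2 methylated reads were at the matches of Hoxb5, with 1 of 96 reads, and Hoxc10, with 1 of 38 reads. All other matches with such cytosines had none, such as Hoxa5 with 0 of 77 reads (0% to 4.75%) and that between Hoxd13 and Hoxd12 with 0 of 60 reads (0% to 6.02%).

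Motifs near and away from starts differed in methylation over the genome. Motif cytosines within 1 kb of a protein-coding start had 1.95% (1.85% to 2.05%) and those elsewhere 12.1% (11.9% to 12.2%). In the Hox windows those near a start had 2 of 264 reads methylated, 0.758% (0.208% to 2.72%), and those elsewhere 0 of 451 reads (0% to 0.845%). Near starts the Hox value could not be told from the rest, whereas away from starts its interval lay below the value over the genome. At the CG of position 15, 2 of 267 reads were methylated in the clusters, 0.749% (0.206% to 2.69%), against 9.56% (9.43% to 9.7%) over all best matches with that CG.

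The same motif cytosines could be read in M-ATAC at few places. Of the cytosines with at least 5 reads in both tables there were 17, with 1 of 185 reads methylated in CTCF M-ChIP, 0.541% (0.0955% to 3%), and 3 of 118 reads in M-ATAC, 2.54% (0.868% to 7.21%). The intervals overlap, and the difference was not tested. At the match of Hoxa10, M-ATAC had 2 of 35 reads methylated, 5.71% (1.58% to 18.6%), and CTCF M-ChIP 0 of 53 reads (0% to 6.76%).

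The next question was whether conversion or the transposase changed how many regions were called in the clusters. The M-ATAC samples 1 to 4 had 9, 14, 5 and 9 regions in the windows, of 26304, 29323, 29331 and 28026 in all. M-ATAC-NC had 12 and 16 regions of 29293 and 32999, and ATAC had 7 and 11 of 24113 and 30666. The groups overlapped except for M-ATAC-NC and ATAC. As a share of each sample's own regions, M-ATAC-NC had 0.041% and 0.0485% and ATAC 0.029% and 0.0359%, also apart. M-ATAC ranged from 0.017% to 0.0477% and overlapped each of them. The mean counts were 9.25 ± 3.69 for M-ATAC (SD, n = 4), 14 ± 2.83 for M-ATAC-NC (SD, n = 2) and 9.0 ± 2.83 for ATAC (SD, n = 2). The difference of M-ATAC from ATAC was 0.25 regions (exact permutation test, two-sided, p = 1, adjusted p = 1), and its sign changed when flanks were left out or M-ATAC replicate 2 was, to -0.5 and -1.33 regions. From M-ATAC-NC it was -4.75 regions (exact permutation test, p = 0.267, adjusted p = 0.6), and M-ATAC-NC differed from ATAC by 5.0 regions (exact permutation test, p = 0.33, adjusted p = 0.6). The former was -2.75 regions without M-ATAC-NC replicate 2, and the latter 3.0 without M-ATAC-NC replicate 2 or ATAC replicate 1.

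**Figure D3:**
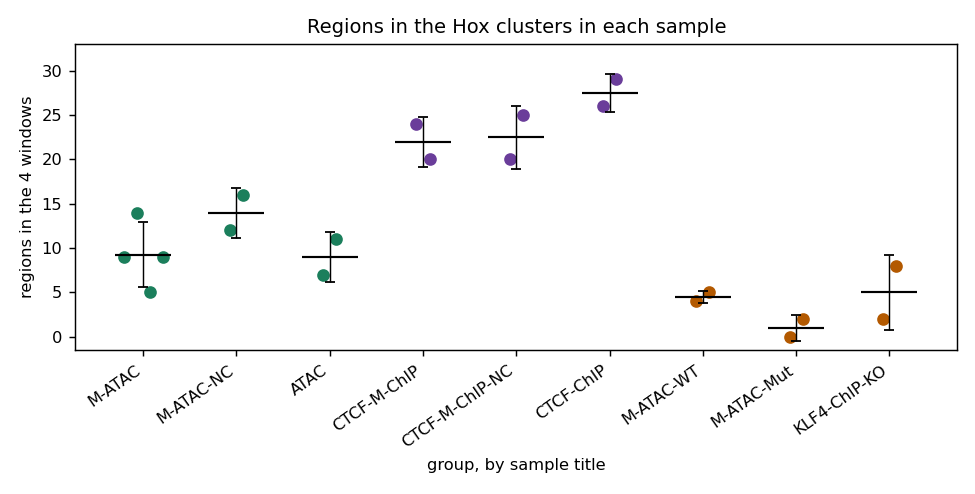
Each point is the number of distinct regions of 1 sample that touch the 4 Hox windows (y axis), by group (x axis, sample titles), with the mean as a line and the SD as a bar; orange groups are PeaKDEck lists. CTCF groups lay between 20 and 29 regions and the open chromatin groups between 5 and 16.

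CTCF regions were more numerous in each sample. CTCF M-ChIP had 24 and 20 regions in the windows, CTCF M-ChIP-NC 20 and 25, and CTCF ChIP 26 and 29. Every CTCF ChIP sample was thus above every sample of the other 2 groups, which overlapped. The means were 22.0 ± 2.83, 22.5 ± 3.54 and 27.5 ± 2.12 (SD, n = 2 each). The difference of CTCF M-ChIP was -5.5 regions from CTCF ChIP (exact permutation test, p = 0.33, adjusted p = 0.6) and -0.5 from CTCF M-ChIP-NC (exact permutation test, p = 1, adjusted p = 1; 1.5 without CTCF M-ChIP replicate 2 and 2.0 without CTCF M-ChIP-NC replicate 2), and CTCF M-ChIP-NC differed from CTCF ChIP by -5.0 regions (exact permutation test, p = 0.33, adjusted p = 0.6). The first was -3.5 regions without CTCF M-ChIP replicate 2, and the last -2.5 without CTCF M-ChIP-NC replicate 1. As a share of each sample's own regions the order turned, with 0.0729% and 0.0639% in CTCF M-ChIP, 0.0898% and 0.082% in CTCF M-ChIP-NC, and 0.0649% and 0.0584% in CTCF ChIP, which had 40046 and 49633 regions in all. With 2 samples against 2 no p below 0.33 is possible, and with 4 against 2 none below 0.0667, so no comparison could reach 0.05. The adjusted values are Benjamini-Hochberg over 9 comparisons, KLF4 included.

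The last lists were made to follow KLF4, a zinc finger factor of the pluripotency network. For cells with WT or R462A KLF4 the sample titles read M-ATAC while the library names read KLF4 M-ChIP, so it is uncertain which assay these lists show. The lists titled M-ATAC-WT had 4 and 5 peaks in the windows, those titled M-ATAC-Mut 0 and 2, and KLF4 ChIP in cells without KLF4 had 2 and 8. As shares of all peaks of a sample these were 0.0428% and 0.0425%, 0% and 0.0361%, and 0.0226% and 0.0561%. The control samples without KLF4 thus lay on both sides of the lists of WT cells. The lists of WT cells differed from those of cells without KLF4 by -0.5 peaks (exact permutation test, p = 1, adjusted p = 1; 2.5 or -3.5 without replicate 2 or 1 of the latter) and from those of mutant cells by 3.5 peaks (exact permutation test, p = 0.33, adjusted p = 0.6). Mutant cells differed from cells without KLF4 by -4.0 peaks (exact permutation test, p = 0.667, adjusted p = 1), and by -1.0 or -7.0 peaks without replicate 2 or 1 of the latter.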

How the data were processed

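The genes and lists were chosen with earlier results of these data known. The submitters' processing notes name Trim Galore (version 0.4.4), Bismark (version 0.18.1) and the build mm10. The authors called regions with MACS2 in each sample and on merged replicates, and KLF4 peaks with PeaKDEck, and which M-ATAC replicates were merged is not given in the sources used here. The deposited region lists give a fold (ratio to the local background) and a −log10 q-value, and the deposited KLF4 lists a p-value. The authors' tables of merged replicates give a count of methylated reads and a percent for each cytosine. All 1571 listed cytosines of the windows lay in CG of the genome. For each CTCF motif match, the deposited list holds the score and p-value from FIMO. The authors' merged table gives TPM, without strand per its name, and the submitters' notes on RNA-seq also name HTSeq, with no version or role; its aligner and annotation are not given in the sources used here. Reads per sample were not used here, and lists were compared at their own depths.

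Regions with several summits were counted once, and an overlap of 1 bp counted. Overlapping KLF4 peaks were joined. Promoters were 1 kb on either side of starts of protein-coding transcripts in GENCODE M21. Named were genes at 1 TPM or more, the highest of each cluster, those at 0, those with a CTCF promoter, CTCF regions between the first and last gene with a motif and calls in 4 of 6 samples or more, and in each cluster the 2 M-ATAC regions of highest fold and the 2 of highest lower bound of methylation. A HoxA flank region that this rule takes, at a promoter outside the 38 genes, is counted and not reported here. Other regions and genes were named after their values were seen. Numbers of regions per sample were tested two-sided by exact permutation. The tests were checked on simulated data. Scripts ran under python 3.11.15 with scipy 1.17.1, numpy 2.4.6 and pandas 2.3.3, and plots were drawn with matplotlib 3.10.9.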

Additional observations from a re-analysis of the deposited data

How the results depend on the processing

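Of 118 alternatives, 97 kept the direction of a difference, a count within 1.5 times that reported or a methylation inside its 95% interval, and the cause was not tested for the others. No comparison of samples could pass the threshold, so its p-values say nothing on stability. The difference of M-ATAC from ATAC (0.25 regions) became -0.5 without flanks, -0.25 with each summit counted and -547 as base pairs covered, but 3.0 at a −log10 q of 5 or more and 1.5 with flanks of 50 kb, and ranged from -1.75 to 2.25 with 1 sample left out, negative without M-ATAC replicate 2 or ATAC replicate 1. As percent of each sample's regions, CTCF M-ChIP differed from CTCF ChIP by 0.00675 and CTCF M-ChIP-NC from CTCF ChIP by 0.0243, against -5.5 and -5.0 regions. CTCF M-ChIP differed from CTCF M-ChIP-NC by 2.0 regions at a −log10 q of 5 or more, -1.5 without flanks, -1.0 with flanks of 50 kb, and by -3.0 to 2.0 with 1 sample left out, against -0.5; it was positive without CTCF M-ChIP replicate 2 or CTCF M-ChIP-NC replicate 2. The other differences kept their direction with 1 sample left out, from -6.75 to -2.75 for M-ATAC and M-ATAC-NC, 3.0 to 7.0 for M-ATAC-NC and ATAC, -7.5 to -3.5 for CTCF M-ChIP and CTCF ChIP, -7.5 to -2.5 for CTCF M-ChIP-NC and CTCF ChIP, -7.0 to -1.0 for mutant cells and cells without KLF4, and 2.5 to 4.5 for WT and mutant cells. At a −log10 q of 5 or more M-ATAC and M-ATAC-NC differed by -1.5 and CTCF M-ChIP-NC and CTCF ChIP by -8.0. Flanks of 50 kb gave -12.0 for CTCF M-ChIP and -11.0 for CTCF M-ChIP-NC against CTCF ChIP, and no flanks gave -1.5 for mutant cells and cells without KLF4 and 1.5 for WT and mutant cells. For lists titled M-ATAC-WT, of uncertain assay, the difference from KLF4 ChIP in cells without KLF4 was 0 without flanks and 0 with flanks of 50 kb, and -3.5 to 2.5 with 1 sample left out, positive without replicate 2 of the latter.

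Hox genes numbered 15 at 0.5 TPM or more and 0 at 5 TPM or more, against 4 at 1 TPM. Promoters with M-ATAC fell from 17 to 1 when regions had to be in every M-ATAC sample, and those with CTCF rose from 6 to 15 with 3 kb. M-ATAC methylation was 0.628% at 10 reads or more and 1.24% without flanks, against 0.908%. Motif methylation was 2.4% at the 18 motif cytosines with 5 reads in M-ATAC, against 0.28% at 64 in CTCF M-ChIP; at the 17 in both tables it was 2.54% and 0.541%, with overlapping intervals.

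With a replicate block, which paired samples by number, the differences were 2.5 for M-ATAC and ATAC, -2.5 for M-ATAC and M-ATAC-NC, 5.0 for M-ATAC-NC and ATAC, -5.5, -0.5 and -5.0 for the CTCF groups, and -0.5, -4.0 and 3.5 for KLF4. With 2 pairs no p below 0.5 is possible, and the labels do not say that a number marks a shared culture. Unconverted controls were set aside from converted preparations per the study's methods, but which M-ATAC sample each came from is not named, so the paired -2.5 stands beside -4.75 for M-ATAC and M-ATAC-NC.

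Merged tables give no spread between replicates, the median cytosine of the windows had 7 reads, and pooled regions of low fold were often absent from single samples. Depth of the samples was not used here.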
